A study of Mus musculus with 8 samples.

Results

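Mitochondrial ribosomal protein genes were followed in the hearts of mouse fetuses that lack type 3 deiodinase (DIO3), the enzyme that inactivates thyroid hormone. The members are the genes whose symbol in the deposited table is Mrpl or Mrps with a number, to which a letter may be added. There were 76 of them, 47 named Mrpl and 29 named Mrps, among the 26590 gene symbols of the table, and each is represented by the transcript row with the highest average over both genotypes. A further 5 symbols written in capitals fall outside this rule. Hearts of 4 Dio3+/+ and 4 Dio3-/- male fetuses on a C57BL/6J background were compared by RNA sequencing, each RNA from 1 fetus. Dio3 was inactivated in the germ line, so every cell of the Dio3-/- fetuses lacks the enzyme, and neither group received a treatment. The sample titles give E13.5 for all 8 hearts, in the age field 2 of the Dio3-/- hearts (3 and 4) stand at E18.5, and the Methods of the study name E14.5. The table holds the mean and the coefficient of variation (SD over mean) of each genotype and no single hearts. No heart could therefore be left out, and whether hearts of the genotypes overlap could not be seen. The Methods of the study give a range of aligned reads over the samples and not the depth of each.

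The mitochondrial ribosome, or mitoribosome, translates the few proteins that mitochondrial DNA encodes, all of them subunits of the respiratory chain and of ATP synthase. Its RNA comes from mitochondrial DNA, while its proteins are encoded in the nucleus, made in the cytosol and imported. Many of these proteins have a bacterial counterpart and others are particular to mitochondria. In the heart, which depends on oxidative metabolism after birth, inherited defects of several mitoribosomal proteins cause cardiomyopathy.

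Most mitoribosomal protein transcripts had a slightly higher mean in Dio3-/- hearts, and for a small number of them the difference was large enough against the spread between hearts to pass the test. Levels are in RPKM (reads per length of transcript and per total of mapped reads), so that they can be compared between genes. All 76 members were above 1 RPKM, the minimum for testing, and none was left out. The mean was higher in Dio3-/- hearts for 73 of them and lower for 3. Over all 14657 gene symbols tested, 63.3% had a higher mean in Dio3-/- hearts. Differences are given as log2 fold changes of Dio3-/- over Dio3+/+ hearts on the log2(RPKM + 0.5) scale. The median log2 fold change was 0.17 for the members (25th to 75th percentile, 0.11 to 0.21) and 0.04 for all genes tested. By limma's moderated test with Benjamini-Hochberg adjustment over 32703 rows, 6 members rose with an adjusted P value under 0.05 and 0 fell. The count was 0 with a separate variance for each genotype and neither pooling, moderation nor trend, and 3 without the mean-variance trend or without the minimum level. Of all genes tested, 1.91% rose by the same rule and 0.382% fell, so that 7.89% of the members passed in the direction in which 1.91% of all genes did, and 2.29% of all genes passed in either direction. With testing restricted to genes above 5 RPKM on average, 7 members rose, where 3.11% of all genes rose and 67.7% had a log2 fold change above 0. Before adjustment, 49 members were higher with a P value under 0.05 and 0 were lower, where 15.2% of all genes were higher. In 41 members the genotype means differed, upward in Dio3-/- hearts, by more than the sum of both SDs, as they did in 12.8% of all genes.

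**Figure D1:**
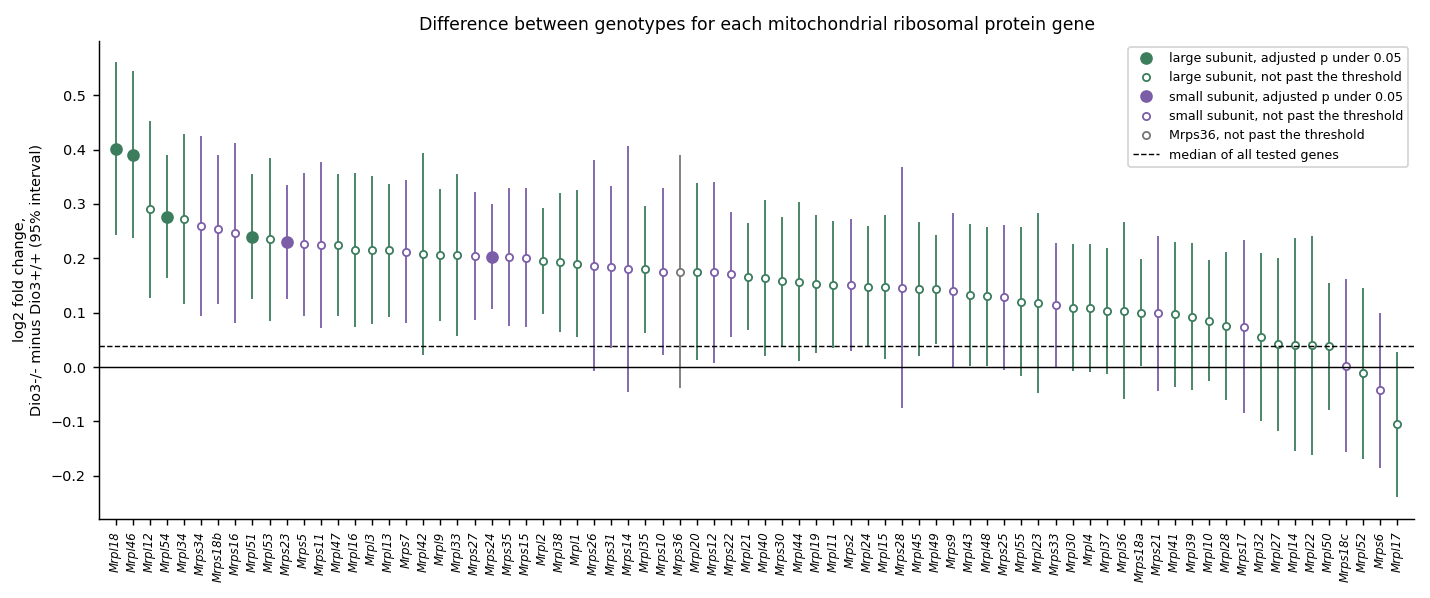
Log2 fold change of each of the 76 mitoribosomal protein genes, Dio3-/- minus Dio3+/+ hearts (4 per genotype), ordered by size, with 95% intervals from limma's moderated test as bars. Filled points mark the 6 genes called at 0.05 after adjustment, and the dashed line is the median of all tested genes at 0.04.

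The scaling between the genotypes bears on these counts. Transcripts of red cells were lower in Dio3-/- hearts, with a summed level over 8 red cell genes, out of 10 listed, of 97861 RPKM in Dio3+/+ hearts against 34003 RPKM in Dio3-/- hearts. Hbb-bh1, an embryonic globin, was the 1 gene among them that passed (limma, log2 fold change −1.51, adjusted P = 0.0468), and none of the 8 was at 0. Globin reads count toward the total that RPKM is scaled to, and the part of this in the members' difference was not tested. After subtraction of the median log2 ratio of all rows, a shift of 0.04, the members' median log2 fold change was 0.13, 72 of 76 were above 0, where 50.6% of all genes were, and 2 members (Mrpl18 and Mrpl46) were called, which is 2.63% of the members against 0.88% of all genes.

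The 6 genes that rose were Mrpl18, Mrpl46, Mrpl54, Mrpl51, Mrps23 and Mrps24. The study's own list of altered genes, from a test that allows unequal variances, holds Mrpl54, Mrps23 and Mrps24 at q under 0.05. Mrpl18, Mrpl46 and Mrpl51 do not appear in that list under these symbols. Whether it names any of them by another symbol, such as its entry bMRP64, was not checked. The list also holds Mrpl2 and Mrpl21, which were not called in the fit reported here. Why that list differs from the calls made here was not tested. Mrpl18 encodes a protein of the large subunit with a bacterial counterpart. Its level was 32.65 ± 1.96 RPKM (SD, n = 4) in Dio3+/+ hearts and 43.28 ± 3.90 RPKM in Dio3-/- hearts, the highest log2 fold change of the 76 at 0.40 (95% interval, 0.24 to 0.56; adjusted P = 0.0244 by limma). The means were 32.6% apart, and the intervals of 1 SD around them did not meet. Mrpl18 overlaps Tcp1, a chaperonin subunit gene transcribed from the opposite strand, and no source used here states that reads were counted by strand. The promoters of Mrpl18 and Tcp1 overlap as well. Tcp1 had 115.72 ± 3.47 RPKM in Dio3+/+ hearts against 120.35 ± 3.61 RPKM in Dio3-/- hearts (log2 fold change 0.06, adjusted P = 0.535 by limma).

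Mrpl46 encodes a large subunit protein that bacteria lack. Its level was among the 5 lowest of all members, 8.28 ± 0.50 RPKM in Dio3+/+ hearts against 11.01 ± 0.88 RPKM in Dio3-/- hearts, and its log2 fold change was 0.39 (95% interval, 0.24 to 0.54; adjusted P = 0.0237 by limma). In the mouse genome Mrpl46 stands head to head with Mrps11, a small subunit gene, and their promoters overlap on opposite strands. Mrps11 had 9.17 ± 0.64 RPKM in Dio3+/+ hearts against 10.80 ± 0.76 RPKM in Dio3-/- hearts (log2 fold change 0.22, 95% interval 0.07 to 0.38, adjusted P = 0.113 by limma), so of this pair 1 passed the test and the intervals of the differences overlapped. Whether the 2 differences differ from each other was not tested.

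Mrpl54 and Mrpl51 encode further large subunit proteins without a bacterial counterpart. Mrpl54 was among the 5 members with the highest levels, at 58.56 ± 2.34 RPKM in Dio3+/+ hearts against 71.04 ± 3.55 RPKM in Dio3-/- hearts (log2 fold change 0.28, standard error 0.05, adjusted P = 0.0290 by limma). For Mrpl51 the levels were 27.22 ± 1.09 RPKM and 32.23 ± 1.61 RPKM (log2 fold change 0.24, adjusted P = 0.0483 by limma). Of the small subunit, 2 genes rose. Mrps23, particular to mitochondria, had 27.92 ± 1.40 RPKM in Dio3+/+ hearts against 32.83 ± 0.66 RPKM in Dio3-/- hearts (log2 fold change 0.23, adjusted P = 0.0437 by limma). Mrps24, which corresponds to a bacterial protein, had 29.86 ± 0.90 RPKM and 34.45 ± 1.03 RPKM (log2 fold change 0.20, adjusted P = 0.0482 by limma). The rises of these 6 genes ran from 15.4% for Mrps24 to 33.0% for Mrpl46.

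Promoters of these genes were searched because mitoribosomal genes are known as targets of the transcription factors NRF1, GABPA and YY1, and because thyroid hormone receptors bind nuclear receptor half-sites. Sequences were taken from RefSeq (GRCm38.p6), 250 bases before to 50 after each start, and the build of the deposited table is not given in the sources used here. Of the 76 members, 67 matched by symbol, with 73 promoters. Promoters are shown for 3 of the genes that rose and that hold an ETS motif, up to 30 bases past the start, together with the 30 bases in Mrps24 around its YY1 motif, all on the strand of the gene. Capitals mark matches on either strand to CCGGAAG, the core bound by GABPA and other ETS factors, or to AAGATGG, the core bound by YY1. The windows are chr17:12916062-12916341 (minus strand) for Mrpl18, chr6:125191950-125192229 (plus strand) for Mrpl51, chr11:88204138-88204417 (plus strand) for Mrps23 and chr11:5707652-5707681 (minus strand) for Mrps24.
Mrpl18: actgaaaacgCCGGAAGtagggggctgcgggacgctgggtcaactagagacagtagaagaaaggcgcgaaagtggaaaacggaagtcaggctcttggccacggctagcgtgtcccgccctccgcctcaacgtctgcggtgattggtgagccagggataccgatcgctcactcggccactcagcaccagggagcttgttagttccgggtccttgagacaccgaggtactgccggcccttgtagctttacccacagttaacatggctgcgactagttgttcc
Mrpl51: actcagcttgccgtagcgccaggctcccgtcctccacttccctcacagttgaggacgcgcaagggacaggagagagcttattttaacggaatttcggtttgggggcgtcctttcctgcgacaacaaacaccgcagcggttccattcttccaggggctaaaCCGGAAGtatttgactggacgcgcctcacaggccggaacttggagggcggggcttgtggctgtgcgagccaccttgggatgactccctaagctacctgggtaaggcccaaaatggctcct
Mrps23: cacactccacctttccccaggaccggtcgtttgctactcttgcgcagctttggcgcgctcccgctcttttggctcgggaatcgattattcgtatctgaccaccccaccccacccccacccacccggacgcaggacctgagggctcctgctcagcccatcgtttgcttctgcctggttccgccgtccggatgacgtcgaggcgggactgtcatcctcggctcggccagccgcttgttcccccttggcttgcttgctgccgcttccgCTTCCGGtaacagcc
Mrps24: cgggtcgcgccggcccAAGATGGcgtggtc

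Counted from the start, with negative positions before it, the first base of the ETS motif lay at −240 in Mrpl18, at −90 in Mrpl51 and at 16 in Mrps23. That of the YY1 motif of Mrps24 lay at 37. The promoter of Mrpl18 overlaps that of Tcp1 on the opposite strand. The promoter of Mrpl46 held none of the 5 motifs searched, and Mrpl54 was not among the matched genes. Over the 73 member promoters, 32.9% held CCGGAAG, against 8.86% of all 32851 promoters and 16.6% of the 11467 promoters of tested genes. AAGATGG was found in 17.8% of member promoters, 6.34% of all and 6.71% of those of tested genes. CATGCGC, a core of the NRF1 site, was found in 11%, 3.91% and 6.66%. For the E-box CACGTG the shares were 9.59%, 7.15% and 10%, and for AGGTCA, the half-site that nuclear receptors bind, 13.7%, 16.3% and 12%. The motifs can overlap at their ends, as CCGGAAG and AAGATGG do over the letters AAG. A match describes the letters of the window and not binding, and no match says nothing about the factor.

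A further group of members lay just outside the threshold. Mrpl2, a large subunit protein at the core that bacteria share, had 22.41 ± 0.67 RPKM in Dio3+/+ hearts against 25.73 ± 0.77 RPKM in Dio3-/- hearts (log2 fold change 0.20, adjusted P = 0.0561 by limma), and its adjusted P value ran from 0.0468 to 0.119 over 10 alternatives. Mrps18b had 14.84 ± 0.89 and 17.78 ± 1.07 RPKM (log2 fold change 0.25, adjusted P = 0.0634 by limma). Mrpl12, the stalk protein that also binds the mitochondrial RNA polymerase, had the third highest level, 74.09 ± 7.41 RPKM in Dio3+/+ hearts against 90.68 ± 4.53 RPKM in Dio3-/- hearts, and its log2 fold change was 0.29 (95% interval, 0.13 to 0.45; adjusted P = 0.0707 by limma). This log2 fold change was close to the 0.28 of Mrpl54, and the SD of Mrpl12 in Dio3+/+ hearts was wider. Mrpl13 (log2 fold change 0.21) and Mrpl34 (0.27), both with bacterial counterparts, had adjusted P values of 0.0723 and 0.0751 by limma.

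At the other end, 3 members had a lower mean in Dio3-/- hearts. Mrpl17, a large subunit protein with a bacterial counterpart, had 13.68 ± 0.96 RPKM in Dio3+/+ hearts against 12.68 ± 0.51 RPKM in Dio3-/- hearts, and its log2 fold change was −0.11 (95% interval, −0.24 to 0.03; adjusted P = 0.385 by limma). Mrps6 had 21.21 ± 1.48 and 20.58 ± 1.23 RPKM, and Mrpl52 had 62.96 ± 4.41 and 62.45 ± 5.0 RPKM, both within 1 SD. Mrps18c (log2 fold change 0.00, 95% interval −0.16 to 0.16) and Mrpl50 (0.04, −0.08 to 0.15) followed. For these 5 genes a rise as large as that of Mrpl18 lies outside the 95% interval. The genes Mrps18a, Mrps18b and Mrps18c encode 3 relatives of a single bacterial protein that sit at different places in the mitoribosome, the first of them in the large subunit. Their log2 fold changes were 0.10, 0.25 and 0.00, with the respective standard errors 0.04, 0.06 and 0.07.

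**Figure D2:**
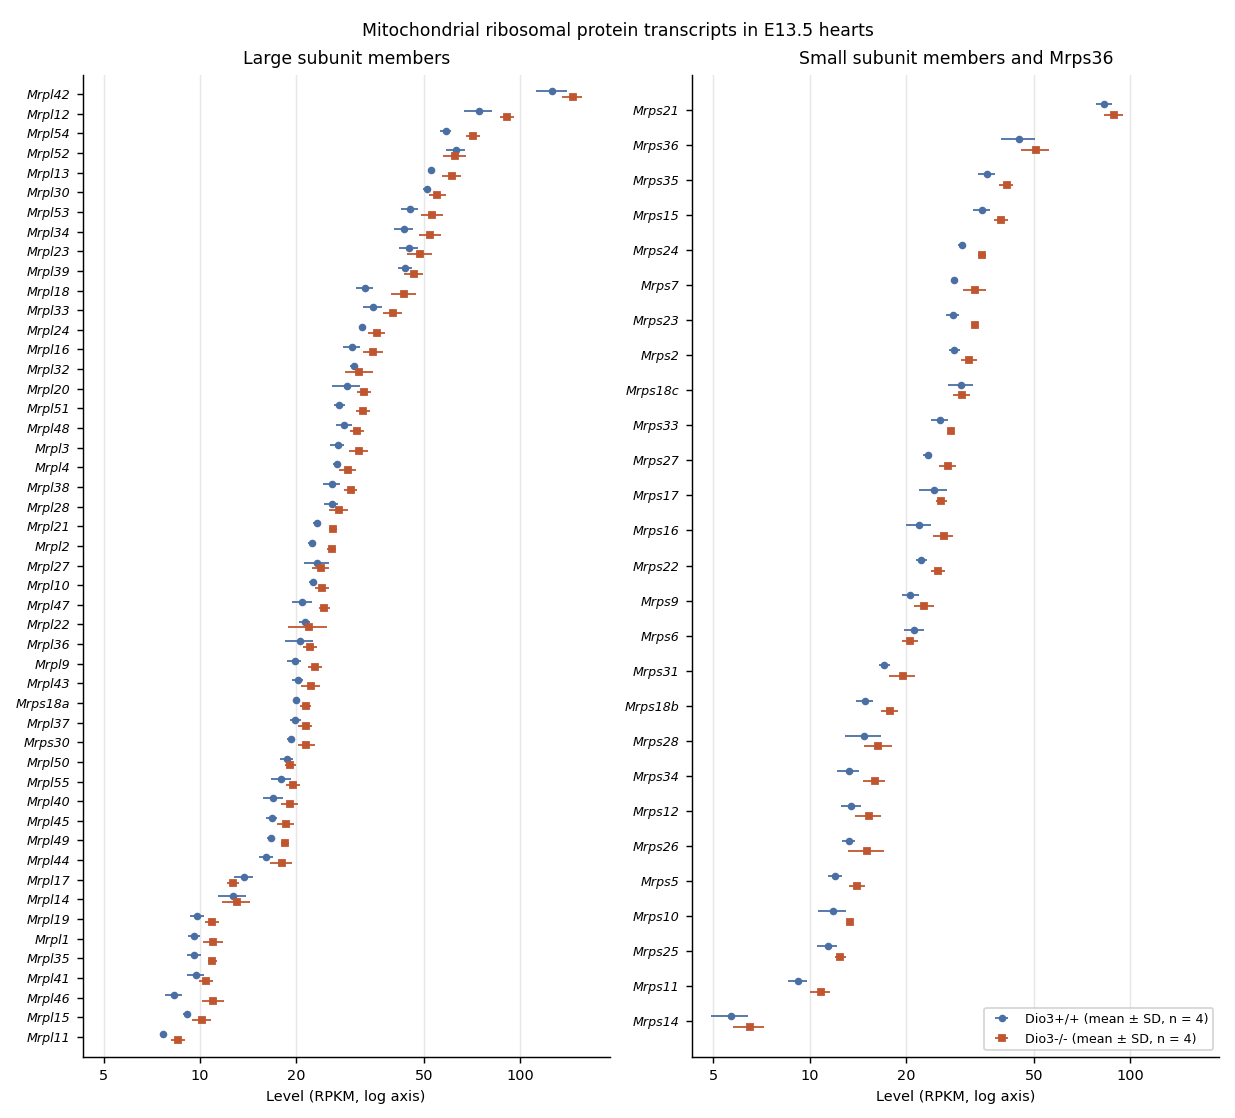
Level in RPKM (log axis) of each mitoribosomal protein gene in Dio3+/+ (circles) and Dio3-/- hearts (squares), as mean ± SD of 4 hearts, with large subunit members on the left and small subunit members with Mrps36 on the right. Levels averaged over both genotypes run from 6.07 RPKM for Mrps14 to 136 RPKM for Mrpl42, and the squares lie to the right of the circles in 73 of 76 genes.

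Although the proteins of a ribosome are present in nearly equal number, the levels of their transcripts per length spanned a wide range. The median over the members was 23.6 RPKM, against 9.52 RPKM over all genes tested. The highest levels were those of Mrpl42 (125.95 ± 13.9 RPKM in Dio3+/+ hearts against 145.57 ± 10.2 RPKM in Dio3-/- hearts) and Mrps21 (83.11 ± 4.99 and 89.05 ± 6.23 RPKM), followed by Mrpl12, Mrpl54 and Mrpl52. The lowest were those of Mrps14 (5.66 ± 0.74 and 6.48 ± 0.71 RPKM), Mrpl11 (7.64 ± 0.15 and 8.54 ± 0.43 RPKM), Mrpl15 (9.10 ± 0.27 and 10.13 ± 0.71 RPKM), Mrpl46 and Mrps11. In neither Mrpl42 (adjusted P = 0.213 by limma) nor Mrps14 (adjusted P = 0.383) did the difference pass the test. Across the 76 genes, which share the same hearts, the level was weakly related to the log2 fold change (Spearman's rho 0.13). Spread between hearts was small, the coefficient of variation having a median of 0.06 in either genotype and none above 0.14. Over all tested rows these medians were 0.09 in Dio3+/+ and 0.06 in Dio3-/- hearts.

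By the place of their proteins, 49 members belong to the large subunit, 26 to the small subunit, and Mrps36 encodes a protein also found with the 2-oxoglutarate dehydrogenase complex. Mrps30 and Mrps18a are counted with the large subunit, where their proteins sit in spite of their names. Of the large subunit members 4 rose (8.16%), with a median log2 fold change of 0.15, and of the small subunit members 2 rose (7.69%), with a median of 0.18. Of the 30 large subunit members with a bacterial counterpart, 1 rose (Mrpl18) and the median was 0.15. Of the 19 that are particular to mitochondria, 3 rose (Mrpl46, Mrpl51 and Mrpl54) and the median was 0.14. In the small subunit, 1 of 16 with a bacterial counterpart (Mrps24) and 1 of 10 particular to mitochondria (Mrps23) rose, with medians of 0.17 and 0.19. Mrps18a and Mrps18b are counted here as particular to mitochondria, although they encode relatives of a bacterial protein. The difference between these groups was not tested, and their interquartile ranges overlapped. Mrps36 had 45.00 ± 5.40 RPKM in Dio3+/+ hearts against 50.88 ± 5.09 RPKM in Dio3-/- hearts (adjusted P = 0.366 by limma).

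Several members are known from inherited disease in which the heart can be affected. Mrpl3 had 26.87 ± 1.34 RPKM in Dio3+/+ hearts against 31.27 ± 2.19 RPKM in Dio3-/- hearts (log2 fold change 0.22, adjusted P = 0.0951 by limma), and Mrpl44 had 16.08 ± 0.80 and 17.99 ± 1.44 RPKM (0.16, adjusted P = 0.228). Mrps22 had 22.28 ± 0.89 and 25.14 ± 1.26 RPKM (log2 fold change 0.17, adjusted P = 0.112 by limma). Among further members linked to mitochondrial disease or central to the small subunit, the log2 fold changes were 0.25 for Mrps16, 0.26 for Mrps34 and 0.17 for Mrps12, with adjusted P values by limma from 0.0978 to 0.244. For Mrps30 the log2 fold change was 0.16 (adjusted P = 0.145 by limma). None of these 7 genes passed the test, and in all 7 the mean was higher in Dio3-/- hearts.

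The transcripts of a gene gave much the same difference. Of the 76 members, 33 had several tested rows, which share reads and are no replicates. In none of the 33 did the rows differ in sign, and the difference between the highest and the lowest log2 fold change had a median of 0.02. It exceeded 0.1 in 3 genes, Mrps5 (0.05 to 0.23), Mrps9 (0.09 to 0.22) and Mrpl42 (0.09 to 0.21). No further member was called when any row of a gene was allowed to pass. In RefSeq, 24 of the 76 members overlap another gene, among them Mrpl18 and Mrps23 of those that rose. The partner of Mrps23, Cuedc1, had 8.64 ± 0.86 RPKM in Dio3+/+ hearts against 9.64 ± 0.48 RPKM in Dio3-/- hearts (adjusted P = 0.316 by limma).

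Other genes of mitochondrial translation were examined with lists that name them by role. Of the mitoribosomal proteins that carry other names, 5 of 6 had a higher mean in Dio3-/- hearts, with a median log2 fold change of 0.17. Of them Ptcd3, a small subunit protein with RNA-binding repeats, rose from 36.67 ± 0.73 to 42.70 ± 1.71 RPKM (log2 fold change 0.22, adjusted P = 0.0408 by limma). Of 12 translation factors 0 passed (7 were higher at an unadjusted P value under 0.05 by limma, and 0 lower), with a median of 0.13. The elongation factor genes Gfm1 and Tufm had log2 fold changes of 0.28 and 0.24 with adjusted P values of 0.0595 and 0.0930 by limma. Of 22 assembly factors and RNA-modifying enzymes found, out of 25 listed, 0 passed (3 higher and 0 lower at an unadjusted P value under 0.05 by limma), with a median of 0.10. The shares higher at that unadjusted cut-off were 58.3% of the translation factors and 13.6% of the assembly group, where 15.2% of all genes were higher. Of 23 genes for the charging of mitochondrial transfer RNA, Qrsl1, an amidotransferase subunit, rose (log2 fold change 0.28, adjusted P = 0.0384 by limma), and the median was 0.14.

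**Figure D3:**
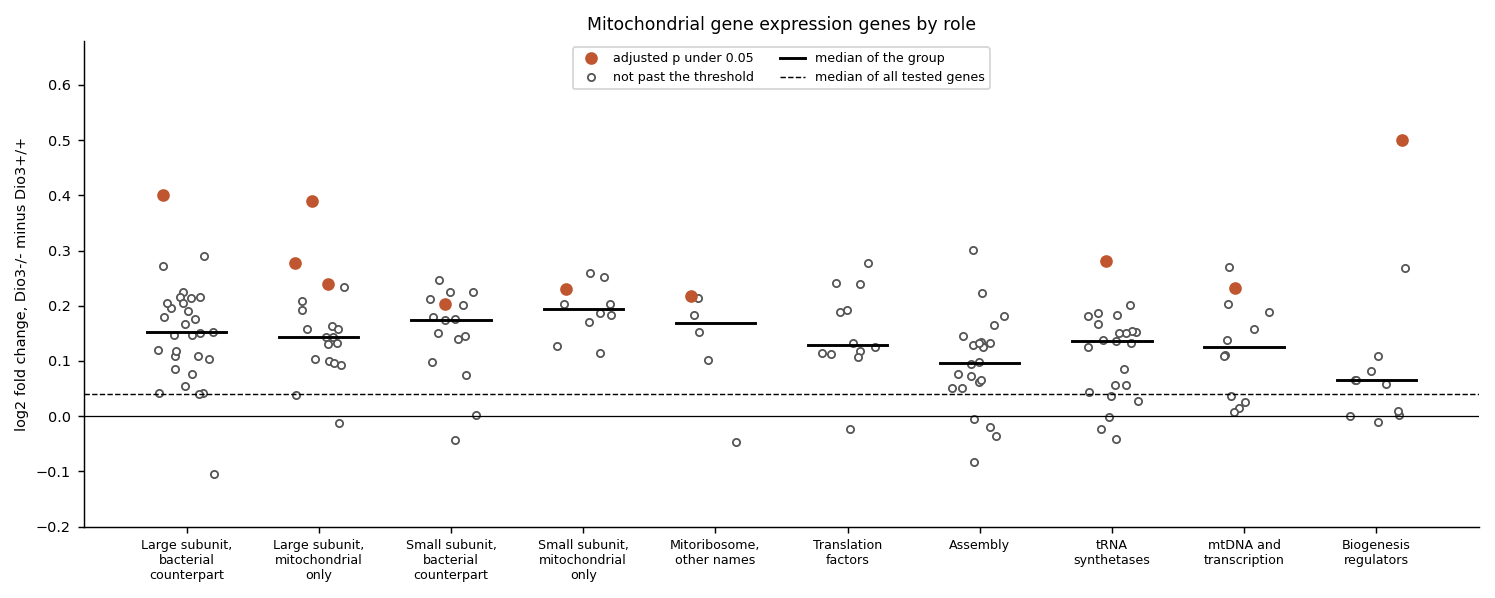
Log2 fold change (Dio3-/- minus Dio3+/+) of each tested gene of mitochondrial gene expression by role, with the 4 groups of members on the left. Filled points passed an adjusted P value of 0.05, solid lines are group medians and the dashed line is the median of all tested genes. Assembly factors and biogenesis regulators have the lowest medians of the 10 groups, 0.10 and 0.06.

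Among 12 genes found of 14 for the maintenance and transcription of mitochondrial DNA and for the stability of its RNA, Pnpt1, which encodes polynucleotide phosphorylase, rose (log2 fold change 0.23, adjusted P = 0.0489 by limma). Lrpprc, an RNA stability factor, stood at 0.27 on the log2 scale (adjusted P = 0.0512 by limma), while Tfam and Polrmt, the packaging factor and the RNA polymerase of mitochondrial DNA, had 0.11 (adjusted P = 0.435) and 0.02 (adjusted P = 0.948). Of 11 regulators of mitochondrial biogenesis, Ppargc1b, a coactivator, rose from 8.46 ± 1.18 RPKM to 12.17 ± 0.73 RPKM (log2 fold change 0.50, adjusted P = 0.0301 by limma). Its relative Ppargc1a had 20.05 ± 2.81 and 21.67 ± 1.30 RPKM (log2 fold change 0.11, adjusted P = 0.580 by limma). The log2 fold changes of Nrf1, Gabpa, Esrra and Yy1 were 0.08, 0.06, 0.27 and 0.01, with adjusted P values by limma from 0.286 to 0.950. Over all 86 genes of these lists, 4 rose and 0 fell (4.65%), 75 had a higher mean in Dio3-/- hearts, and the median was 0.12, where 1.91% of all genes rose and 63.3% had a higher mean. With centring 0 of the 86 were called and 67 were above 0.

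Cytosolic ribosomal protein genes and nuclear-encoded subunits of oxidative phosphorylation served as like groups. Of 79 cytosolic ribosomal protein genes tested, 38 had a higher and 41 a lower mean in Dio3-/- hearts, with a median log2 fold change of −0.00475, and 0 passed by limma (0 higher and 2 lower at an unadjusted P value under 0.05). Of 82 oxidative phosphorylation subunits, 80 had a higher mean (97.6%), the median was 0.24, and 4 rose (4.88%): Atp5f1, Ndufb2, Ndufs4 and Ndufs5. At an unadjusted P value under 0.05 by limma, 65 of the subunits were higher (79.3%) and 1 was lower, where 64.5% of the mitoribosomal genes were higher. Of all genes tested, 63.3% had a higher mean, 15.2% were higher at that unadjusted cut-off and 1.91% rose. With centring, without the trend or without the minimum level 0 of the subunits were called. Among genes above 5 RPKM, 10 subunits rose (12.5%), where 3.11% of all genes did. The median of the mitoribosomal genes, 0.17, lay between the medians of the cytosolic and the oxidative phosphorylation genes. These groups were set side by side as descriptions, and the differences between them were not tested. When the genotypes were centred, 17 of the 79 cytosolic, 72 of the 76 mitoribosomal and 79 of the 82 oxidative phosphorylation genes were above 0.

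**Figure D4:**
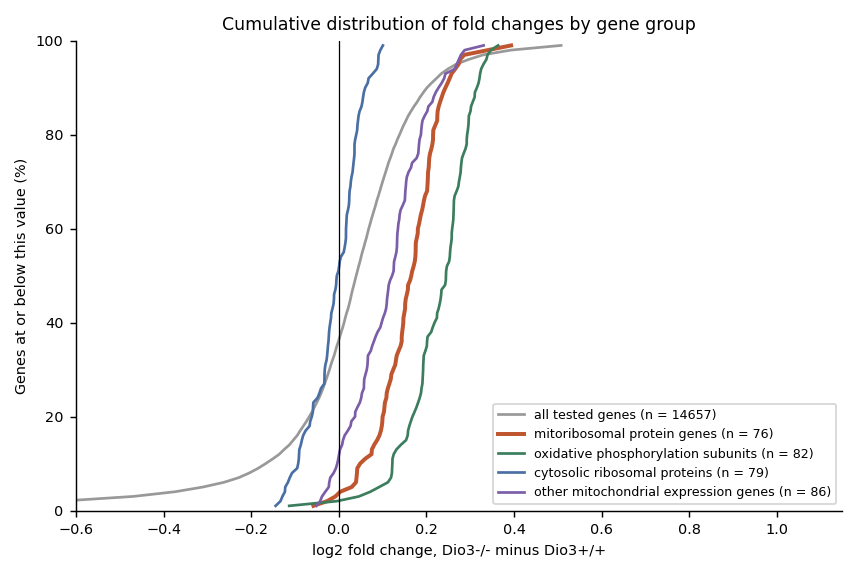
Cumulative percent of genes at or below each log2 fold change (Dio3-/- minus Dio3+/+) for all tested genes and 4 groups, drawn from the 1st to the 99th percentile, with the lowest values of all genes beyond the left edge of the axis. The curve of the 76 mitoribosomal protein genes lies right of that of all genes over most of its length and between those of the cytosolic ribosomal proteins (median −0.00475) and the oxidative phosphorylation subunits (median 0.24).

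In whole hearts, fewer cells of a type and less RNA per cell cannot be told apart. Markers of cardiomyocytes were abundant, as the label of the tissue says, with a summed level over 14 genes of 15165 RPKM in Dio3+/+ hearts against 18067 RPKM in Dio3-/- hearts, of which 3 rose (Myh6, Tnni3 and Ryr2). Sums over 8 endothelial markers were 283 and 302 RPKM, over 6 epicardial markers 106 and 114 RPKM, and over 6 macrophage markers 35.9 and 39.5 RPKM. Of these 6, Lyz2 rose from 13.34 to 18.82 RPKM, and the other 5 had lower means in Dio3-/- hearts that did not pass the test, the median log2 fold change of the list being −0.11. Of 6 epithelial markers of neighbouring organs, 5 were below 1 RPKM in both genotypes, and Nkx2-1 stood at 8.18 ± 1.31 RPKM in Dio3+/+ hearts against 8.35 ± 1.67 RPKM in Dio3-/- hearts. The 10 hepatocyte markers summed to 24.3 RPKM in Dio3+/+ hearts against 131 RPKM in Dio3-/- hearts, with median coefficients of variation of 1.02 and 1.10, and none was at 0 or passed the test. All 10 were higher in Dio3-/- hearts at an unadjusted P value under 0.05 by limma, where 15.2% of all genes were. Their median log2 fold change was 1.88. The part of these hepatocyte transcripts in the members' differences was not tested. The Dio3 transcript, with 0.35 ± 0.43 RPKM in Dio3+/+ hearts against 0.13 ± 0.10 RPKM in Dio3-/- hearts, was too low to check the genotype labels.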

How the data were processed

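Total RNA of fetal hearts was depleted of ribosomal RNA and sequenced. According to the Methods and the labels, the authors aligned reads with NovoAlign (version 2.08), kept reads with a unique position and adjusted all samples by a linear factor to the smallest read number. The authors deposited 51414 rows (UCSC known-gene transcripts) with genotype means, taken to be RPKM because the Methods filter in that unit and the header names none, and coefficients of variation, a ratio of SD to mean, rounded to 2 decimals. The table also holds fold changes and q values, which were not used. Unique mapping can lower the level of genes with processed pseudogenes.

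For each row, log2(mean + 0.5) was taken, the coefficient of variation gave its SD by the delta method, and limma (version 3.58.1, in R 4.3.3) moderated the pooled variance, which has 6 residual degrees of freedom, along a mean-variance trend. P values were adjusted over the 32703 rows above 1 RPKM in at least 1 genotype, and percentages of genes over 14657 symbols by 1 row each. The fit was tested on simulated data. P values by limma set the difference between the genotype means against the spread between hearts, pooled over the genotypes and moderated over the rows. The members, lists and tests were chosen with earlier results of these data known, and the place of each protein in the mitoribosome was assigned from general knowledge. Genes named are the members past the threshold, the 5 nearest it on each side, the 5 highest and lowest by fold change and by level, fixed disease-linked or subunit-related members, up to 3 genes in each direction past the threshold and fixed regulators from the other lists; other genes named were chosen after their values were seen. Python (version 3.11.15) and pandas (version 2.3.3) were used for summaries.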

Additional observations from a re-analysis of the deposited data

How the results depend on the processing

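The number of mitoribosomal protein genes called by limma was 6 in the fit reported. It was 3 without an expression filter and without the mean-variance trend, 2 with centring, 2 when each coefficient of variation was raised by its largest rounding error (0.005) and 0 with Welch's test from the summaries, and from 6 to 7 under the other 5 alternatives. All members called under these alternatives were higher in Dio3-/- hearts. Mrpl18 and Mrpl46 were called in 9 of 10 alternatives, Mrpl54 in 7, and Mrpl51, Mrps23 and Mrps24 in 5 each. The count over all genes, 336, was 197 without a filter, 250 without the trend, 27 with Welch's test, 180 with centring and 187 with the raised coefficients. At 280 higher to 56 lower in the reported fit, the split was 129 to 51 with centring. The 4 mitochondrial expression genes outside the members became 1 without a filter, 2 without the trend, 0 with Welch's test, 0 with centring, 1 with the raised coefficients and 6 above 5 RPKM, where Gfm1 and Lrpprc were added. The 4 oxidative phosphorylation genes became 10 above 5 RPKM and 0 without a filter, without the trend, with Welch's test, with centring and with the raised coefficients. Cytosolic ribosomal protein genes stayed at 0 under the 10 alternatives run. The members' median log2 fold change, 0.17, ran from 0.13 with centring to 0.17. The causes were not tested. No paired analysis was possible because the table gives genotype means and no column for a single heart, and for the same reason no heart was left out and hearts 3 and 4 of the Dio3-/- group, whose age field differs, could not be set aside.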
